A study of Mus musculus with 6 samples.

Results

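The thrombospondin genes of the mouse are Thbs1, Thbs2, Thbs3, Thbs4 and Comp, which encodes cartilage oligomeric matrix protein. Their promoter regions were examined for occupancy by the DNA-binding factor TEAD4 in C2C12, a line of mouse myoblasts that form myotubes once serum is withdrawn. A probe was taken for a gene when the array annotation named that gene with a distance to its start, which gave 189 probes of 474380 on the arrays. All 5 genes had probes, and they are 5 of 16511 genes with enough probes to be measured. The family was chosen by measured values: Thbs1 was already known from these data for its enrichment over input in the TEAD4 precipitates and for its large TEAD4 minus control difference. The values over input and over control are therefore given as a description, with no test for the 5 genes.

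The TEAD4 cells expressed Flag-HA-TEAD4 from a retroviral vector, and the control cells had received the empty vector. Both populations were selected with puromycin and left to differentiate for 5 days, with horse serum at 2%. Crosslinking was with formaldehyde at 0.4%. Chromatin of both was precipitated with an anti-Flag antibody, so the control measures what that antibody and procedure bring down without the tagged protein. The TEAD4 group has 2 samples, named duplicates in the labels, and the control group has 1, and every sample was hybridised to both of 2 promoter array designs. The tagged TEAD4 was introduced into the line, and the labels do not say how its amount compares with that of the cells' own TEAD4. No label ties the duplicates to separate cultures, so their spread may be technical. Precipitated DNA carries no RNA levels, so markers of the myotube state were not measured.

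Thrombospondins are secreted, calcium-binding glycoproteins of the extracellular matrix that modulate how cells attach to and signal through it. Thbs1 and Thbs2 encode proteins that assemble as trimers and carry type 1 repeats, through which they bind receptors such as CD36, while Thbs3, Thbs4 and Comp encode proteins that assemble as pentamers without these repeats. In muscle and tendon, thrombospondin 4 is known from the matrix at their junction, and cartilage oligomeric matrix protein from tendon and cartilage. TEAD factors bind DNA and recruit the co-activators YAP and TAZ, and Thbs1 is commonly listed among genes that respond to YAP.

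Each value is log2 of the precipitated (IP) signal over the input signal, centred on the median of its array, so that 0 is the typical probe and 1 is a 2-fold excess. A window is the mean over a probe and those up to 500 bp away on either side, at least 3 probes in all. Across all windows the standard deviation was 0.38 and 0.40 in the TEAD4 samples and 1.04 in the control sample. The median IP spot stood 3.62 to 5.41 times above its local background on the TEAD4 arrays and 1.84 to 2.04 times on the control arrays. The median window difference of TEAD4 minus control was -0.26, so directions against the control are relative to that shift. With 1 control sample of this width, no spread between control samples is known.

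Thbs1 encodes thrombospondin 1, a matrix protein that binds CD36 and CD47 and activates latent TGF-beta. DNA upstream of its start was enriched in both TEAD4 samples, in an unbroken run of 8 probes from -1736 to -575 bp. The run lies on chromosome 2 from 117801599 to 117802809 in the coordinates of the array files, a span of 1211 bp that the annotation classes as promoter. The sources used here name no genome build for these coordinates. Over the 8 probes the mean log2 IP/input was 2.20 in TEAD4 sample 1 and 2.09 in TEAD4 sample 2, against -0.29 in the control. Every one of these probes was at least 2-fold over input in both TEAD4 samples. In the control 5 of the 8 lay below 0.

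Within the run the highest probes lay away from its edges, but not every inner probe was higher than both edges. The inner probe at -742 bp had 1.64 and 1.52 in the TEAD4 samples, against -1.12 in the control. At the outer edge, -1736 bp, the probe had log2 IP/input of 1.87 and 1.43 in the TEAD4 samples, against -0.45 in the control. At -1238 bp it had 3.01 and 2.89 in the TEAD4 samples, against -1.10 in the control. At -934 bp it had 2.41 and 3.16 in the TEAD4 samples, against -1.40 in the control. The highest probe was thus the one at -1238 bp in TEAD4 sample 1 and the one at -934 bp in TEAD4 sample 2. At the inner edge, -575 bp, the probe had 1.54 and 1.23 in the TEAD4 samples, against 2.11 in the control, which is the 1 probe of the run where the control was higher. In scanner intensity the median IP signal over the run was 5603 and 5424 in the TEAD4 samples with input at 1262 and 1054, against an IP signal of 531 and input of 897 in the control. All 8 probes had an IP signal well above background in all 3 samples.

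**Figure D1:**
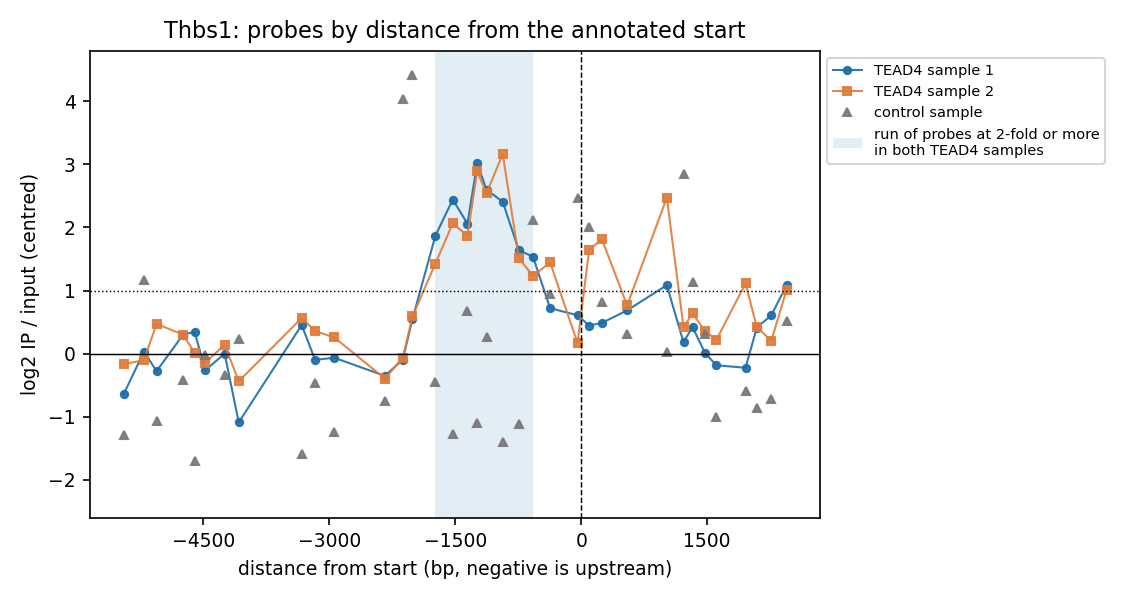
Log2 IP over input of the 36 Thbs1 probes (vertical axis, centred on each array's median) by distance from the annotated start in bp (horizontal axis), for TEAD4 samples 1 and 2 and the control sample. The shaded run from -1736 to -575 bp holds 8 probes above the dotted 2-fold line in both TEAD4 samples, while the control's points lie mostly below 0 there.

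Few genes on the arrays had a run of this length. Thbs1 was chosen for the same values over input, so its place among them is a description. A run at least as long was found for 3 genes (0.0182% of 16511), with neighbouring probes at most 500 bp apart. The other two, named after their values were seen, were Mrgpre, a G protein-coupled receptor gene, with 9 probes, and Map4k4, a kinase gene of the Hippo network, with 8. With arrays scaled to equal spread 21 genes had a run as long as that of Thbs1. The length of a run also depends on how densely a promoter was tiled.

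The top window of Thbs1, the one with the highest TEAD4 mean, was centred at -1354 bp and held 6 probes on chromosome 2 from 117801599 to 117802458. It had a log2 IP/input of 2.40 and 2.33 in the TEAD4 samples, against -0.55 in the control. The TEAD4 samples lay close together and far above the control. Their mean was 2.36 ± 0.05 (SD, n = 2), a 5.14-fold excess over input, and the difference from the control was 2.91. Among all genes, 0.151% had a top window as high or higher. Of the 36 windows of Thbs1, 8 reached 2-fold over input in both TEAD4 samples, as did 0.66% of all windows, and 7 of these also reached 2-fold over the control, as did 0.262% of all windows. In total 10 of its windows reached 2-fold over the control, against 3.33% of all windows, and 2 lay 2-fold below it, against 21.7%. No thrombospondin window lay 2-fold below input in both TEAD4 samples, which 0.0252% of all windows did, and the other 4 genes had none over input or over the control.

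Outside the run Thbs1 looked different. Over the 14 probes upstream of -2000 bp the mean was -0.08 and 0.10 in the TEAD4 samples, against 0.07 in the control. Within that stretch the control had single high probes at -2124 and -2008 bp, with 4.03 and 4.42, where TEAD4 sample 1 had -0.09 and 0.55 and TEAD4 sample 2 had -0.07 and 0.59. Those neighbours give the control's highest Thbs1 window, at -2337 bp, which had 0.04 and 0.04 in the TEAD4 samples, against 2.56 in the control. The control's highest window at Thbs1 thus lay upstream of the TEAD4 run. At the outer edge of the run the window at -1736 bp had 1.64 and 1.46 in the TEAD4 samples, against 1.05 in the control. That window takes in the high control probes at -2124 and -2008 bp, while the control's own probe at -1736 bp was at -0.45.

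Around and past the start of Thbs1 the TEAD4 samples differed from each other. Over the 4 probes within 500 bp of the start the mean log2 IP/input was 0.57 and 1.27 in the TEAD4 samples, against 1.56 in the control. Both TEAD4 samples were below the control there, and their SD was 0.50. Over the 10 probes from 500 to 2500 bp past the start it was 0.41 and 0.76 in the TEAD4 samples, against 0.20 in the control, with probes of 1 sample scattered by SDs of 0.47 and 0.68 in TEAD4 and 1.16 in the control.

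Thbs2 encodes thrombospondin 2, the close relative of thrombospondin 1 that also carries type 1 repeats and inhibits vessel growth. Its 44 probes, from -5634 to 2306 bp on chromosome 17, showed no stretch of enrichment in TEAD4. The top window, at 1018 bp and thus inside the gene, had 0.30 and 0.36 in the TEAD4 samples, against -0.39 in the control. The TEAD4 samples were above the control, at a mean of 0.33 ± 0.05 (SD, n = 2), and 59.1% of genes had a top window as high or higher. A single probe, at 1373 bp, was 2-fold over input in both TEAD4 samples, with 1.01 and 1.08 against -1.39 in the control. Its neighbours at 1152 and 1533 bp were at 0.56 and -0.11 in TEAD4 sample 1 and at 0.47 and 0.08 in TEAD4 sample 2.

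Thbs3 encodes thrombospondin 3, a pentameric member studied in skeletal growth. It starts close to Mtx1, a mitochondrial import gene on the other strand, and 7 of its 48 probes are also annotated to that gene, the nearest at -9 bp from the Mtx1 start. The top window of Thbs3, at 813 bp on chromosome 3 from 89301504 to 89302320, had 0.70 and 0.68 in the TEAD4 samples, against 0.68 in the control. TEAD4 and control thus coincided at the place where TEAD4 was highest. The mean was 0.69 ± 0.02 (SD, n = 2), the second highest of the family, and 23.0% of genes reached it. One probe, at 608 bp, passed 2-fold in both TEAD4 samples, with 1.10 and 1.23, but the control had 3.84. On the upstream side shared with Mtx1, 5 probes between -2000 and -500 bp averaged 0.35 and 0.31 in the TEAD4 samples, against 1.99 in the control.

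Thbs4 encodes thrombospondin 4, the member best known from muscle and tendon matrix. Of its 30 probes on chromosome 13, 29 were used, since 1 was flagged as non-uniform by the scanner software. The top window, at -305 bp, had 0.20 and 0.20 in the TEAD4 samples, against 1.71 in the control. It was the lowest top window of the family, with 77.7% of genes as high or higher, and no probe of the gene was 2-fold over input in both TEAD4 samples. The same window was the control's highest at Thbs4. The sign of TEAD4 minus control in the top window, -1.51, turned to 0.12 with normexp background correction, with the window at the same place.

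Comp, on chromosome 8, had no probe of its 31 that was 2-fold over input in both TEAD4 samples, while 23 were in the control. Control probes scattered more widely in general, with an SD of 1.61 on this array design, against 0.54 and 0.58 in the TEAD4 samples. The probes of Comp ranged from -0.36 to 0.66 in TEAD4 sample 1 and from -0.78 to 0.78 in TEAD4 sample 2, against -1.62 to 4.44 in the control. The top window, at 842 bp, had 0.51 and 0.44 in the TEAD4 samples, against 2.24 in the control. The mean was 0.48 ± 0.06 (SD, n = 2), which 40.8% of genes reached. TEAD4 minus control in this window was -1.77, but -0.03 with normexp and -0.36 with arrays scaled to equal spread, at the same place. In the control 25 of 31 windows of Comp (80.6%) reached 2-fold over input, against 26.4% of all windows. In both TEAD4 samples 21 of the 31 windows were 2-fold lower than in the control, as were 21.7% of all windows. The control's highest window, at 697 bp, had 0.46 and 0.32 in the TEAD4 samples, against 2.71 in the control.

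**Figure D2:**
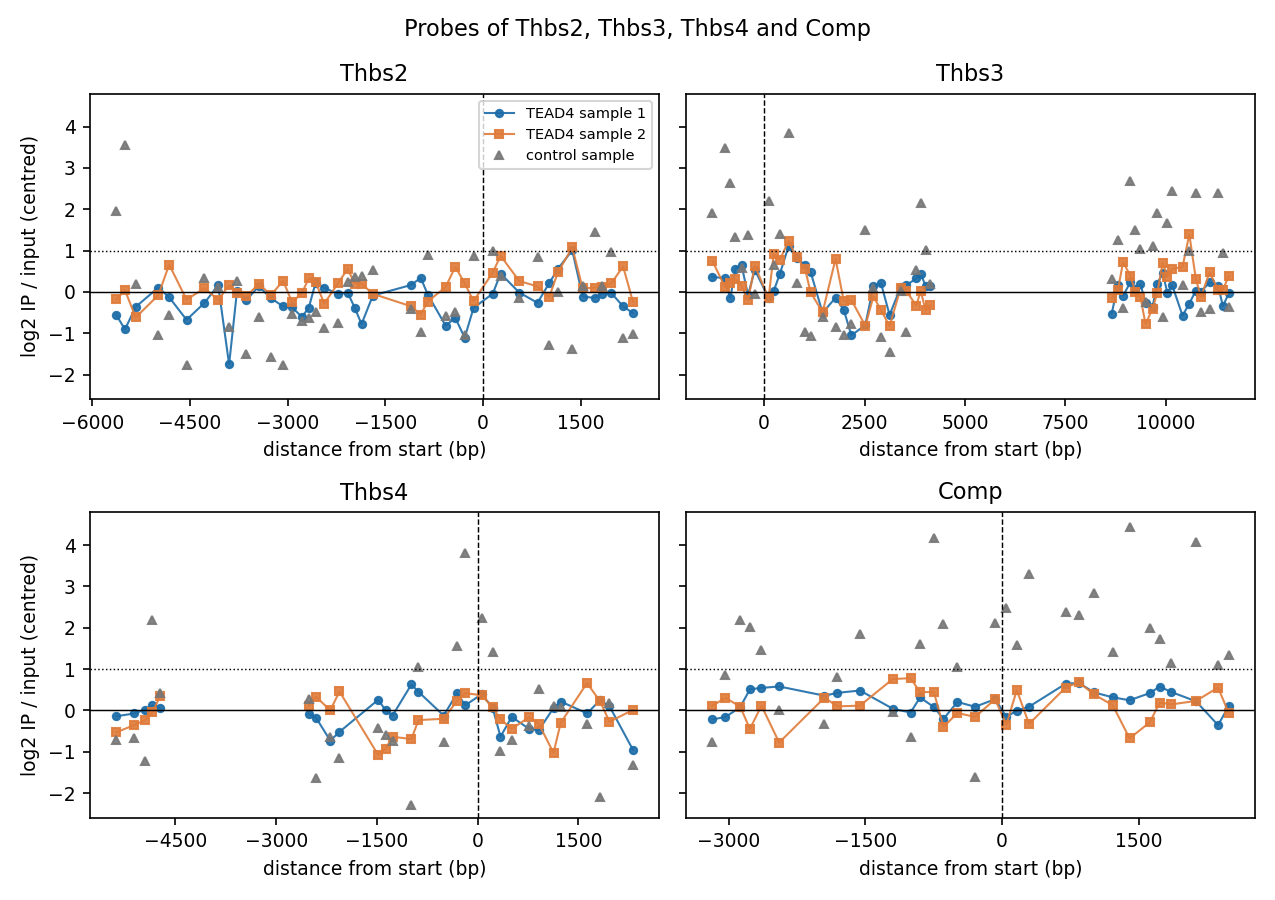
Log2 IP over input (vertical axis) by distance from the annotated start in bp (horizontal axis) for the used probes of Thbs2, Thbs3, Thbs4 and Comp, in TEAD4 samples 1 and 2 and the control sample. At most 1 probe per gene lies above the dotted 2-fold line in both TEAD4 samples, and the control points at Comp lie mostly above it.

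By TEAD4 over input the order of the top windows was Thbs1, Thbs3, Comp, Thbs2 and Thbs4. The step from Thbs1 to Thbs3 was 1.68. Thbs1 was chosen for this enrichment and each window was picked for its highest TEAD4 mean, so nothing is read from the size of that step. The steps between the lower neighbours were 0.21, 0.14 and 0.13. These exceed the SD of the duplicates in the windows themselves (at most 0.06) but not the SD towards which limma moderates all windows (its prior SD, 0.24 and 0.22 on the array designs), so the order among the lower 4 genes is not resolved. With a 2-fold excess over input asked of both TEAD4 samples in the same window, 1 of 5 genes passed, against 5.2% of all genes, and for a 2-fold deficit 0 of 5, against 0.327%. The same 1 of 5 passed when the window also had to be 2-fold over the control, against 2.56% of all genes. Because Thbs1 was known to pass when the family was chosen, nothing is read from these counts.

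**Figure D3:**
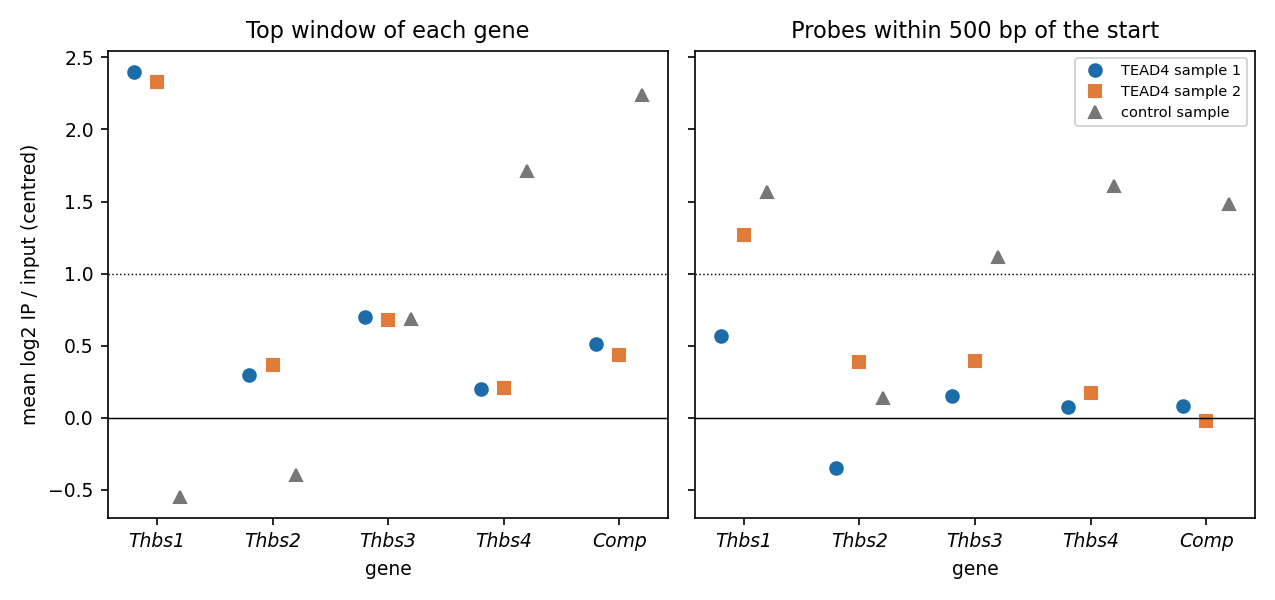
Mean log2 IP over input (vertical axis) of the top window (left) and of the probes within 500 bp of the start (right) for each thrombospondin gene, with a point for TEAD4 sample 1, TEAD4 sample 2 and the control sample. Thbs1 alone lies above the dotted 2-fold line in TEAD4 in its top window, at 2.40 and 2.33, and near the start the control is above both TEAD4 samples for every gene but Thbs2.

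At a fixed place that no value chose, the probes within 500 bp of the start, the family differed less. Thbs1 averaged 0.92 ± 0.50 over input in TEAD4, against 1.56 in the control. Thbs3 averaged 0.27 ± 0.17, against 1.11 in the control, and Thbs4 averaged 0.12 ± 0.07, against 1.61. Comp averaged 0.03 ± 0.07, against 1.48 in the control, and Thbs2 averaged 0.02 ± 0.52, against 0.14 (SD, n = 2 for each TEAD4 mean). The TEAD4 samples of Thbs1 had 0.57 and 1.27, and the highest sample of any other member was TEAD4 sample 2 at Thbs3 with 0.39. The place was fixed, but Thbs1 itself was chosen for its enrichment. Its probes here begin at -370 bp, next to the run that ends at -575 bp, and neighbouring probes share DNA fragments. The higher values of Thbs1 are therefore a description and no separate support. Below Thbs1, neighbours in the order of means overlapped.

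**Figure D4:**
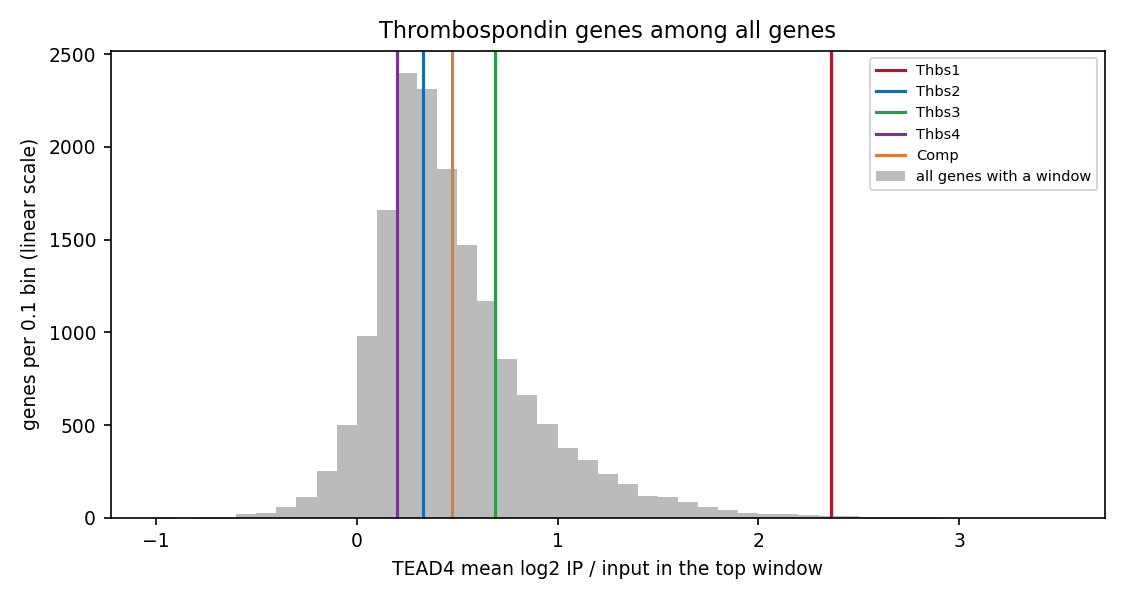
Number of genes (vertical axis) by the TEAD4 mean log2 IP over input of their top window (horizontal axis, bins of 0.1) for 16511 genes, with a line at each thrombospondin gene. Thbs1 lies in the far right tail at 2.36, and the other 4 lines fall between 0.20 and 0.69, in the bulk.

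Measured against the control over all windows, 1 of 5 genes reached 2-fold higher in both TEAD4 samples somewhere, as did 29.9% of all genes. All 5 had a window at least 2-fold lower, and so did 81.9% of all genes. In the control all 5 reached 2-fold over input somewhere, as did 85.6% of all genes. The largest TEAD4 minus control difference of any window was 3.01 at Thbs1, at -1127 bp, which 0.0848% of genes reached. For Thbs2, Thbs3 and Thbs4 it was 1.07, 1.04 and 0.98, in windows where the control lay between -1.12 and -0.87 and each TEAD4 sample between -0.23 and 0.21. For Comp it was -0.25, so with these settings the TEAD4 mean was below the control in every window. At Thbs1 by contrast the TEAD4 side of that window was itself high, with 2.36 and 2.34 against -0.66 in the control.

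The correlation of the duplicates along a gene was highest at Thbs1. Across its 36 probes Pearson's r between the TEAD4 samples was 0.86. It was 0.46 over 48 probes of Thbs3, 0.19 over 44 of Thbs2, -0.07 over 31 of Comp and -0.13 over 29 of Thbs4. The size of r also depends on how widely the probes of a gene vary. Probe SDs in the TEAD4 samples were 0.98 and 0.95 at Thbs1 and between 0.28 and 0.51 at the other genes. A higher r therefore does not show that the duplicates lay closer together at Thbs1, which was chosen for its enrichment. These r values are descriptions across neighbouring probes, which share DNA fragments, and both samples share their dye orientation. Between the TEAD4 mean and the control r was -0.10 at Thbs1, -0.09 at Thbs2, 0.28 at Thbs3, 0.44 at Thbs4 and -0.03 at Comp.

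The 250 bases before the start are shown for the 3 members that the RefSeq promoter table (GRCm38.p6) holds, Thbs2, Thbs3 and Thbs4, so that the motif content near the start can be set beside the low TEAD4 values there. Capitals mark GGAATG, the motif bound by TEAD factors, or TATAAA, the TATA box, on either strand. The table's start sites were not aligned to those of the array. Thbs4 is at chr13:92794819-92795068 on the minus strand, Thbs3 at chr3:89214930-89215179 on the plus strand and Thbs2 at chr17:14694263-14694512 on the minus strand.
Thbs4: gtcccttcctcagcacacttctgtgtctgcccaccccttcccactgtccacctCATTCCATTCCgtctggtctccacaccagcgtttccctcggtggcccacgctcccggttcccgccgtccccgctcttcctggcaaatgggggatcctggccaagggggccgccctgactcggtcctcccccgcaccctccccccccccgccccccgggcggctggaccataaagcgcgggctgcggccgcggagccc
Thbs3: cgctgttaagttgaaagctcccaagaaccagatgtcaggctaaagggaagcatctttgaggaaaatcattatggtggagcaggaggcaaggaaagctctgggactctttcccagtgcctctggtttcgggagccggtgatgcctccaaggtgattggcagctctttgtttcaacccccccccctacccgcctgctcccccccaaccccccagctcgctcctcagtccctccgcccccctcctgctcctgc
Thbs2: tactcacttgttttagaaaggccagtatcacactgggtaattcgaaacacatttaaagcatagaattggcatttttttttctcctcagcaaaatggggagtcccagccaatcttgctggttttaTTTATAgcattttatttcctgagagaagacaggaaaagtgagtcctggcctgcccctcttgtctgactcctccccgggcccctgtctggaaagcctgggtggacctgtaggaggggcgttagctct

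In the Thbs4 sequence the TEAD motif occurs on the opposite strand at -197 and again at -192, the copies sharing a base. GGAATG occurs in 12.6% of 32851 promoters in the same 250 bases, on either strand. With each source's start taken as given, the array probe closest in distance was at -185 bp. It had 0.12 and 0.42 in the TEAD4 samples, against 3.80 in the control. Because the starts were not aligned, how far this probe lies from the copies is not known. The Thbs3 and Thbs2 sequences hold no GGAATG, and Thbs2 holds TATAAA at -126 on the opposite strand, a motif in 12.4% of promoters. TGANTCA, the motif of AP-1, is in none of the 3 and in 6.75% of promoters. CANNTG, the E-box that myogenic factors bind, occurs once in each of the 3 and in 66.2% of promoters. G and C make up 70.8% of the Thbs4 sequence, 58.8% of Thbs3 and 46.8% of Thbs2. A match in these letters is a description and not a site, and the enriched run of Thbs1 lies outside what the table covers.

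Genes for proteins that work with thrombospondins gave a setting for the family. Of 68 genes in 4 lists 62 were measured, and 5 of these reached 2-fold over input in both TEAD4 samples, which is 8.06% against 5.2% of all genes. This count was 2 with normexp, where 554 of all 16511 genes passed, and 15 with arrays scaled to equal spread, where 2522 passed. Their median top window was 0.47 in TEAD4 and 0.37 in the control, against 0.40 and 0.70 over all genes. By limma's test of TEAD4 against input, with a Benjamini-Hochberg adjusted p of at most 0.05 over all genes, 19 of the 62 were higher (12 with normexp) and 2 lower. The same test called 23.9% of all genes higher and 11.8% lower, and with normexp it called 2044 of all 16511 genes higher. These shares, and 5.2% of all genes for the 2-fold rule, are the background for the counts of each list below.

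Among 16 measured receptors and surface partners, 6 were higher and 0 lower by limma, and 1 passed the 2-fold rule. This was Sdc4, a heparan sulphate proteoglycan of the cell surface, with 1.20 and 1.19 in the TEAD4 samples, against 1.99 in the control. TEAD4 samples matched each other there and stayed below the control. Of 20 matrix partners, cargo proteins and proteases, 7 were higher and 1, the fibrinogen gene Fgb, was lower by limma, and 0 passed the 2-fold rule.

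Among 15 other matricellular genes, 4 were higher and 0 lower by limma, against 23.9% and 11.8% of all genes. The 2-fold rule was passed by 3, against 5.2% of all genes. Ccn1 [Cyr61 on the array], a secreted adhesion protein, had 1.93 and 2.29 in the TEAD4 samples, against 1.10 in the control. Sparc, a collagen-binding glycoprotein, had 1.47 and 1.35, against 0.23 in the control. Ccn2 [Ctgf], a growth factor-binding relative of Ccn1, had 1.06 and 1.48, against 0.56 in the control. In each of these the TEAD4 samples lay above the control, and the adjusted p of limma against input ran from 3.72e-05 for Ccn1 to 0.000584 for Ccn2. These 3 genes were named because the same values over input passed the 2-fold rule, so the p-values are no separate support. The Ccn1 window was upstream of the start, at -2076 bp, like that of Thbs1, while those of Sparc and Ccn2 were inside the gene, at 1207 and 1537 bp. Among 11 other genes with type 1 repeats, 2 were higher and 1, Rspo3, was lower by limma. Adamts5, an aggrecan-cleaving protease, alone passed the 2-fold rule, with 1.36 and 1.12 in the TEAD4 samples, against -0.05 in the control.

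**Figure D5:**
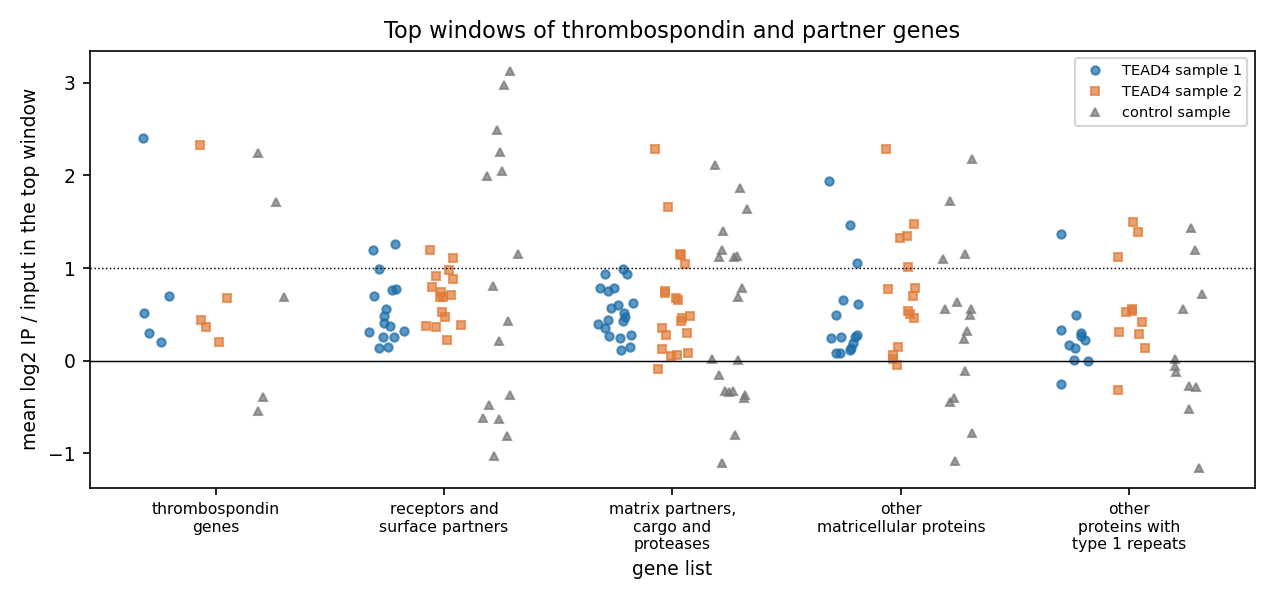
Mean log2 IP over input of the top window (vertical axis) of each thrombospondin gene and of each measured partner gene by list (horizontal axis), with a point per gene for TEAD4 sample 1, TEAD4 sample 2 and the control sample. Thbs1, at 2.40, and Ccn1, at 1.93, are the highest points of TEAD4 sample 1, and the control points spread wider than the TEAD4 points.

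The genes most like Thbs1 were sought by the distance between top windows over the 3 samples, in log2 units. The nearest was Esrp2 [Rbm35b], a splicing factor of epithelial cells, at a distance of 0.32, with 2.25 and 2.05 in the TEAD4 samples, against -0.60 in the control. Pmpcb, a subunit of the mitochondrial processing peptidase, followed at 0.37, with 2.21 and 2.06 in TEAD4, against -0.37 in the control. Fam71f1 [BC048651] and Itprip [BC063749], a gene for an inositol trisphosphate receptor-interacting protein, were at 0.41 and 0.44. Mymk [1110002H13Rik], the membrane protein needed for myoblast fusion, was at 0.45, with 2.06 and 2.52 in TEAD4, against -0.32 in the control. All 5 windows lay upstream of the annotated start, between -3680 and -602 bp, and held 3 to 6 probes.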

How the data were processed

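Spot intensity was extracted by the authors in Feature Extraction, version 9.5.3.1 of the Agilent software, per the file headers. IP DNA was labelled with Cy5 and input DNA with Cy3 on every array, per the labels' protocols. The deposited processed intensities are background-subtracted, detrended and dye-scaled. The deposited log10 ratios are IP over input of these, and the series matrix equals them (largest difference 0). Extended dynamic range was on for the control arrays only, per the file headers.

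From the processed intensities, log2 IP/input was taken and the median of each array subtracted, without control spots, probes with no position and probes flagged as non-uniform. This kept 236180 and 235690 probes and 428020 windows. The 16839 array symbols were matched to RefSeq (GRCm38.p6, names only), 16451 through an accession, 212 through the symbol itself and 119 through a synonym, and 57 stayed as given. A symbol of the array that differs stands in brackets. Limma 3.58.1 in R 4.3.3 tested TEAD4 against 0 within each array design (1 residual and 13.4 or 13.9 prior degrees of freedom), with a Simes p per gene, direction from its window of lowest p, and Benjamini-Hochberg adjustment over 16511 genes. It was also run on simulated data, with noise drawn independently for each probe. Real neighbouring probes share DNA fragments, so that run does not give the error rate of the calls here. P-values measure only the spread between these samples. The number of arrays limits the precision.

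The members and lists were chosen with earlier results of these data known. Named genes are the 5 members, genes sharing their probes, up to 4 genes per partner list with the largest TEAD4 mean among those 2-fold over input in both TEAD4 samples, and the 5 genes nearest to Thbs1. Fgb, Rspo3, Mrgpre and Map4k4 were named after their values were seen. Alternatives changed the background correction, normalization, scaling, window, probe filter, threshold and samples.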

Additional observations from a re-analysis of the deposited data

How the results depend on the processing

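Thbs1 passed 2-fold over both input and control under each alternative run, and no other thrombospondin gene did. At 1.5-fold over input, 2 of 5 passed, Thbs3 being the other. The Thbs1 top window stood at 2.27 with normexp, 2.30 with loess, 3.45 when all arrays were given 1 median absolute deviation (scaling), 2.57 with windows of 250 bp and 1.86 with 1000 bp on each side, and from 2.34 to 2.40 when 1 TEAD4 sample was left out. Its difference from the control was 2.39, 2.66, 3.71 and 1.75 with normexp, loess, scaling and 1000 bp, and from 2.95 to 3.0 without 1 TEAD4 sample. The Thbs1 run, tried under alternatives chosen after seeing the data, held 7 probes with normexp and 9 with loess or scaling, lengths that 5, 2 and 21 genes reached, and 9 or 8 with 1 TEAD4 sample, which 18 genes reached. The genes 2-fold over input numbered 554 with normexp, 2522 with scaling, 368 with 1000 bp, 3335 at 1.5-fold and 129 at 3-fold, and from 1331 to 2566 with 1 TEAD4 sample. Those also 2-fold over the control numbered 1494 with scaling, 265 with at least 5 probes, 161 with 1000 bp, 1506 at 1.5-fold and 68 at 3-fold, and from 640 to 1366 with 1 TEAD4 sample. Limma called 2044 genes higher and 48 lower with normexp, and 1051 lower with 250 bp. Limma was not run with 1 TEAD4 sample, which leaves no residual degrees of freedom. The cause of these shifts was not tested. The median TEAD4 minus control window was 0.01 with normexp and -0.06 with loess. The top-window difference from the control ran from -0.95 to 0.68 at Thbs3, from -2.21 to 1.01 at Thbs4 and from -2.07 to -0.03 at Comp. Part of this is a change of place: the lowest Thbs3 value is at 608 bp, and the highest Thbs4 value, without TEAD4 sample 1, at -2058 bp. With the window in place, Thbs3 stayed at or above 0.00 and Thbs4 turned to 0.12 with normexp. The partner genes 2-fold over input numbered from 8 to 15 of 62 with 1 TEAD4 sample, where from 1331 to 2566 of all 16511 genes passed. They numbered 10 with 250 bp, where 1094 of all genes passed. At 1.5-fold they numbered 17, against 3335 of all genes, and at 3-fold 1, against 129. No paired analysis was possible because the control has 1 sample. Single control probes carry the widest scatter, which limits every value against the control.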

Other observations

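The TEAD4 duplicates parted at a few places of the family. Upstream of Thbs4, over 6 probes from -2000 to -500 bp, the mean log2 IP/input was 0.18 in TEAD4 sample 1 and -0.63 in TEAD4 sample 2, against -0.63 in the control. Within 500 bp of the Thbs2 start the samples had -0.35 and 0.39, against 0.14 in the control. Inside Thbs1, the probe at 1019 bp had 1.09 and 2.47 in the TEAD4 samples, against 0.03 in the control, while its neighbours at 547 and 1218 bp were at 0.77 or lower in both. A second probe far inside Thbs1, at 2445 bp, had 1.09 and 1.02 in the TEAD4 samples, against 0.52 in the control. It is the last probe tiled for the gene, so what lies beyond it was not measured.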
